A study of Arabidopsis thaliana with 72 samples.

Results

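A set of 9 genes of abscisic acid (ABA) turnover and of the response to drought were followed through hybrids, Hybrid Mimics and small lines of Arabidopsis thaliana. These 9, of 37336 in the deposited count table, were taken by gene identifier: NCED3 (AT3G14440), CYP707A1 (AT4G19230), CYP707A3 (AT5G45340), RAB18 (AT5G66400), RD29A (AT5G52310), RD29B (AT5G52300), RD20 (AT2G33380), RD26 (AT4G27410) and HAI1 (AT5G59220). Rosette leaves of 25-day-old plants gave 72 libraries in 24 groups of 3. The groups were the inbred parents Ws, Ler and Col, the reciprocal F1 hybrids WsxLer, LerxWs, ColxLer and LerxCol, the Hybrid Mimics WL_HM1 to WL_HM7 and CL_HM1 to CL_HM6, and the small lines wl_sml1, wl_sml2, cl_sml1 and cl_sml2. Hybrid Mimics are F7 lines bred by repeated selfing and selection for F1-like size, and small lines are F7 lines of the same crosses with small plants. No drought treatment is named: all plants grew under 16 h of light at 22 °C and 8 h of dark at 18 °C, and went from plates into soil at day 15. A parent or hybrid library pooled 3 plants, whereas a library of an F7 line held 1 plant, so that the 3 libraries of a line are siblings of 1 inbred line. The Ws/Ler set was collected 6 to 8 h after dawn, and no hour is given for the Col/Ler set. Ws and Col belong to different sets, so that accession and collection set cannot be told apart in any comparison of Ws with Col. The same 3 Ler libraries serve both crosses. The study's methods name Ler plants in both collection sets whereas the deposited design text names them in the Ws/Ler set only, so that the set of the 3 libraries is not settled, and its part in comparisons of Col or of a Col/Ler group with Ler was not tested. The study left out CL_HM5 and CL_HM6 for their plant size at sampling.

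ABA is the hormone by which plants answer water shortage. NCED enzymes cut a carotenoid precursor in the step that limits ABA synthesis, and CYP707A enzymes hydroxylate ABA, which starts its breakdown. When ABA binds its PYR/PYL receptors, clade A phosphatases such as HAI1 are held back, SnRK2 kinases are released and bZIP factors of the ABF family switch on genes through a promoter element called ABRE. RAB18 (a dehydrin), RD29A, RD29B and RD20 (a calcium-binding caleosin) are classic response genes, and RD26 is a NAC transcription factor that ABA and dehydration induce. Several of them, with CYP707A genes and HAI1, are themselves induced by ABA, and RD29A is induced by cold and drought also without ABA, through an element called DRE.

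The promoters of 5 members are shown because they hold the elements named above in different numbers. Each run is the 250 bases before the annotated start of the gene, 5′ to 3′, from RefSeq's TAIR10.1 assembly. Capitals mark the ABRE core ACGTG (or its complement CACGT) and the DRE core CCGAC (or its complement GTCGG), and the palindrome CACGTG was counted as an overlapping match on each strand.
RD29A, chr5:21240467-21240716, plus strand: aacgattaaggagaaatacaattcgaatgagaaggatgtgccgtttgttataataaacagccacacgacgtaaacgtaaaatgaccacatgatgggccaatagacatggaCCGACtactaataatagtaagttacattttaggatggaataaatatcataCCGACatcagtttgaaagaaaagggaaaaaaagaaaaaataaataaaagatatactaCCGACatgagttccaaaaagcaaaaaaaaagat
RD29B, chr5:21236771-21237020, plus strand: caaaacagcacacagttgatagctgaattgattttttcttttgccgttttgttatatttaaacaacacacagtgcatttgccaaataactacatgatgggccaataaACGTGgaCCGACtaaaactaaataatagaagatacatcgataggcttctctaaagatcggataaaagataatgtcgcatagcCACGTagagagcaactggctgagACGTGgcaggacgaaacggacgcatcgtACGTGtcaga
RAB18, chr5:26519448-26519697, minus strand: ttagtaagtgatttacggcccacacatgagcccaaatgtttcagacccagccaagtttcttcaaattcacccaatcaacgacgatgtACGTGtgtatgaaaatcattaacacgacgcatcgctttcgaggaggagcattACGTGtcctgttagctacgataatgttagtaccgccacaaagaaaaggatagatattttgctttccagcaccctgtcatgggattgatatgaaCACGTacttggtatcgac
CYP707A1, chr4:10521009-10521258, plus strand: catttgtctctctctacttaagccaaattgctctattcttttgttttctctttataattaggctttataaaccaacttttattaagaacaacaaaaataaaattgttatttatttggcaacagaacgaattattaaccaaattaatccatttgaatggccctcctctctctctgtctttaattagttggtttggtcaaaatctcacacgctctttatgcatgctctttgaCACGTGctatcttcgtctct
CYP707A3, chr5:18371022-18371271, minus strand: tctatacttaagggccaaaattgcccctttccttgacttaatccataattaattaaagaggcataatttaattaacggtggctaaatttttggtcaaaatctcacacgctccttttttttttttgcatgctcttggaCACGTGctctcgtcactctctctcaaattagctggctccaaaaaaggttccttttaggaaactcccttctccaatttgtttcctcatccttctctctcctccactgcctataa
The RD29A stretch held 3 DRE cores and 0 ABRE cores, and that of RD29B held 4 ABRE cores and 1 DRE core. RAB18 had 3 ABRE cores and 0 DRE cores, and each CYP707A gene had 1 CACGTG. Of the other members, RD20 had 3 ABRE core matches, RD26 had 1 of each core, and NCED3 and HAI1 had 0 of either in this window. Among 27443 nuclear protein-coding genes, 22.9% held an ABRE core in the same window, 8.84% held 2 or more, 12% held a DRE core and 3.39% held both. A match is a description of the letters only.

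In TAIR10.1, whose nuclear chromosomes are those of the TAIR10 genome used for alignment, RD29B lies on chromosome 5 from 21237021 to 21239531 on the plus strand and RD29A follows it on chromosome 5 from 21240717 to 21243644 on the plus strand. The pair is separated by 1185 bases with 0 annotated genes between them. NCED3 lies on chromosome 3 from 4831286 to 4834015 on the minus strand. CYP707A1 lies on chromosome 4 from 10521259 to 10523961 on the plus strand and CYP707A3 on chromosome 5 from 18368532 to 18371021 on the minus strand. RD20 lies on chromosome 2 from 14144831 to 14146555 on the minus strand, RD26 on chromosome 4 from 13707192 to 13709170 on the minus strand, and HAI1 on chromosome 5 from 23894404 to 23896939 on the minus strand. RAB18, on chromosome 5 from 26518277 to 26519447 on the minus strand, was the only member whose annotation touches another gene, AT5G66410 on the opposite strand, with which it shares 11 exon bases.

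Libraries held 17741358 to 28527725 counts, with a median of 20432113. Values below are normalized counts: counts scaled by TMM to the mean size of the 72 libraries. Calls are those with an adjusted p no higher than 0.05 in edgeR's quasi-likelihood test, adjusted by Benjamini-Hochberg over all genes tested. The 4 leaf genes RBCS1A, CAB2, RCA and CA1 summed to 268921 to 1156239 normalized counts and were lowest in the small lines, 5 flower genes summed to 14.8 to 402 normalized counts, 3 seed genes to 0 to 26.6 and 2 root hair genes to 0 to 11.1. Among the libraries 6 stood apart, each with over 100 genes at least 4-fold above both libraries of the same group: WL_HM3 replicate 3 (483 genes), cl_sml2 replicate 2 (206), LerxWs F1 replicate 3 (141), WL_HM6 replicate 2 (133), CL_HM5 replicate 3 (109) and LerxWs F1 replicate 2 (107). Results that rest on them are given without them as well.

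RD20 was the most abundant of the 9 per length of exon, with a median over the 72 libraries of 1166 normalized counts per kilobase, followed by RD29A with 768, RAB18 with 366 and RD26 with 276. NCED3 (121) and HAI1 (102) came next. CYP707A3 (21.1), RD29B (20.1) and CYP707A1 (17.5) were lowest on this scale. All 9 passed the filter of 50 counts in at least 1 library in every fit. CYP707A1, CYP707A3, RD29B and HAI1 fell below 50 raw counts in some libraries, down to 5 for RD29B.

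Replicates of a group differed far more in these genes than in most. The SD of log2 CPM within groups was 1.30 for RD29B, 1.26 for HAI1 and 1.05 for RAB18, against a median of 0.21 over all genes. These 3 lay above 98.4% of all genes in spread, and CYP707A3, the steadiest member with 0.46, lay above 84.8%. The spread was no smaller where 3 plants had been pooled: RD29B had an SD of 1.63 in the 7 parent and hybrid groups and 1.13 in the 17 single-plant lines, and RAB18 had 1.27 and 0.94. The median over all genes was likewise no smaller in pooled libraries, 0.222 against 0.198. Of the members, CYP707A3 alone had the lower value in pooled libraries, 0.34 against 0.51. The 24 group means formed a gradual order. The highest group was wl_sml1 for NCED3, RD29A and HAI1, cl_sml1 for CYP707A1 and RD20, cl_sml2 for RD26, WsxLer F1 for CYP707A3, LerxWs F1 for RD29B and LerxCol F1 for RAB18. Single libraries carry some of these places. RD26 read 2494 normalized counts in cl_sml2 replicate 2 against 898 and 730 in its group mates. RD29B read 1799 in LerxWs F1 replicate 3 against 55.9 and 20.5, and RAB18 7948 in LerxCol F1 replicate 2 against 1406 and 1400. Without those libraries none of these groups would be highest. WL_HM4 was lowest for 5 members, CYP707A3, RD29A, RD29B, RD26 and HAI1. For CYP707A1, RD29B, RD20, RD26 and HAI1 each group overlapped its next neighbour in all 23 steps of the order, and for NCED3, CYP707A3, RAB18 and RD29A in 22 of 23.

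**Figure D1:**
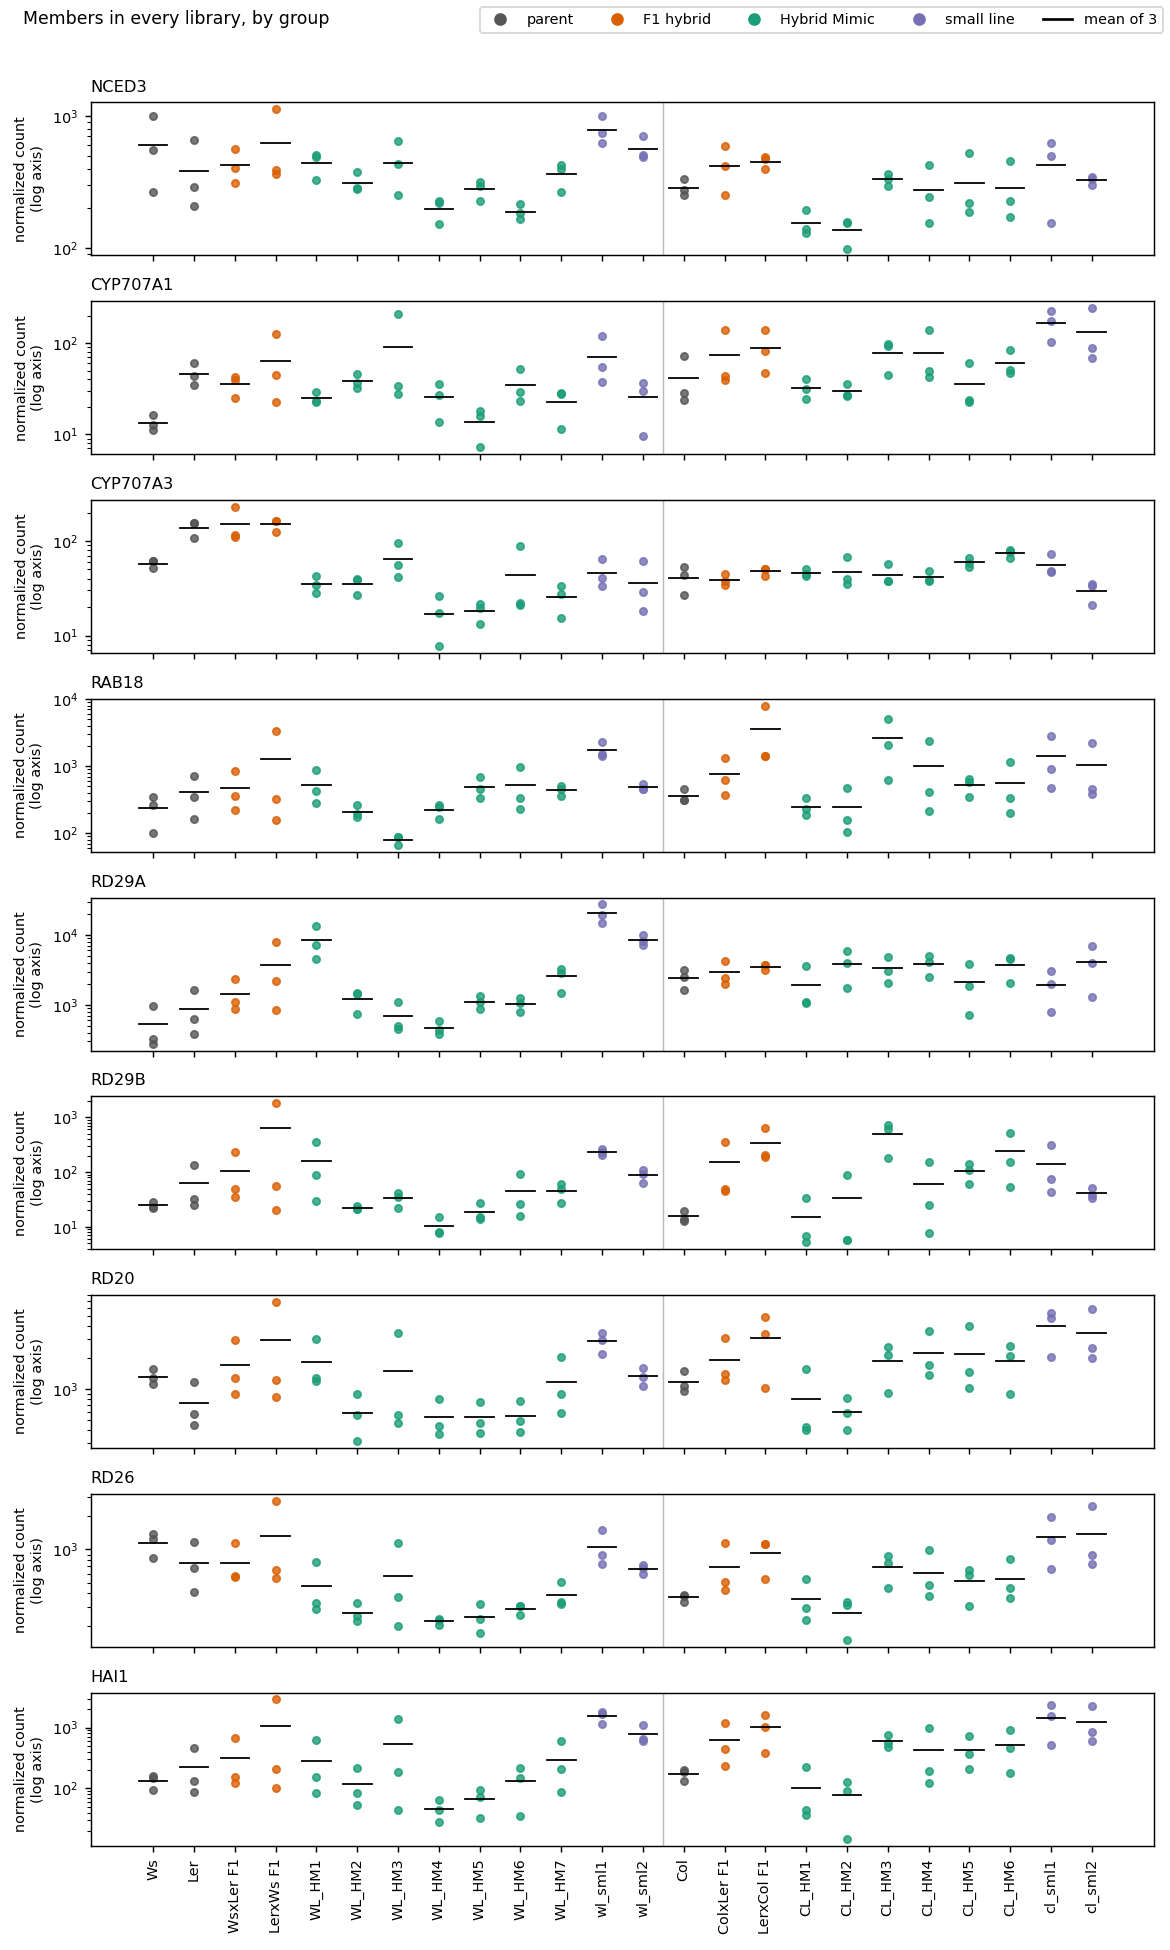
Normalized counts (log axes) of the 9 genes in each of the 72 libraries, with points coloured by kind of plant, a bar at each group mean and a grey line between the Ws/Ler groups with Ler and the Col/Ler groups. CYP707A3 is high in Ler and the Ws/Ler hybrids, at 107 to 229 normalized counts, and RD29A peaks in wl_sml1, whereas RAB18, RD29B and HAI1 spread widely within groups.

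The parents were compared to ask what each cross brought together. CYP707A3, one of the ABA 8′-hydroxylases, was higher in Ler than in either other parent. Its normalized counts were 156, 154 and 107 in the 3 Ler libraries. They were 61.0, 51.4 and 60.8 in Ws and 43.4, 26.97 and 52.9 in Col. Neither group overlapped Ler. The difference was called for Ws against Ler (log2 fold change -1.27, SE 0.26, adjusted p = 0.00882) and for Col against Ler (log2 fold change -1.73, SE 0.27, adjusted p = 0.00219), and both calls held under every alternative in which the gene was tested. In bulk leaf RNA, fewer cells that express a gene and less RNA per cell cannot be told apart.

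The paralogue CYP707A1 was low in Ws only, with 16.5, 12.6 and 11.3 normalized counts. Ler gave 60.0, 34.8 and 43.7 and Col 72.4, 23.7 and 28.1, all above the Ws libraries. It was called for Ws against Ler (log2 fold change -1.79, SE 0.48, adjusted p = 0.0277) and for Ws against Col (log2 fold change -1.65, SE 0.48, adjusted p = 0.0339). With these low counts both calls were lost when any 1 Ws library was left out, the first also without Ler replicate 1 and the second without Col replicate 1, with adjusted p up to 0.0897 and 0.135.

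RD29A and RD26 differed between Ws and Col, which come from different collection sets, in opposite directions. RD29A read 323, 971 and 279.8 in Ws, 382, 628 and 1647 in Ler and 2515, 1643 and 3152 in Col, so that Col lay above every Ws library. The Ws against Col difference was called (log2 fold change -2.24, SE 0.60, adjusted p = 0.0249), and lost without Ws replicate 1 or 3 or Col replicate 1 or 3, with adjusted p up to 0.0796. RD26 read 1247, 1375 and 839 in Ws and 334, 387 and 377 in Col, without overlap, and was higher in Ws (log2 fold change 1.63, SE 0.33, adjusted p = 0.00691) under every alternative.

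In all, 2 of 9 members were called for Ws against Ler, where 20.7% of all genes tested were, 1 of 9 for Col against Ler (14.4%) and 3 of 9 for Ws against Col (24.1%). The Ws against Ler count ran from 1 to 4 as single libraries were left out, with 4 without Ler replicate 3, and the Col against Ler count reached 3 without Ler replicate 1 or 3. Ler replicate 3 was the highest Ler library for 7 of the members, among them RD29B with 133 against 24.6 and 32.6. NCED3, RAB18, RD20 and HAI1 were not called between any parents. NCED3 read 991, 549.8 and 266 in Ws, 208, 288 and 653 in Ler and 333, 275 and 252 in Col, and the 3 ranges overlap.

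Of 63 other genes of ABA synthesis, breakdown, transport, perception and response, 49 were tested among the parents. For Ws against Ler 6 were higher and 4 lower, for Col against Ler 3 higher and 4 lower, and for Ws against Col 5 higher and 4 lower. Of all genes tested 20.7%, 14.4% and 24.1% were called in these comparisons, so that none of the counts stands out as high. XERO2, a dehydrin gene that cold and ABA induce, was lower in Ws than in Ler (log2 fold change -2.76, SE 0.48, adjusted p = 0.00346) and than in Col (log2 fold change -3.88, adjusted p = 0.00045), the direction RD29A took against Col. TSPO, an ABA-induced membrane protein gene, was lower in Ws than in Ler (-2.91), as was DTX50, an ABA exporter (-1.14). NAC055, a NAC gene related to RD26, was higher in Ws than in Ler (2.13 on the log2 scale) and than in Col (2.71), and RD26 was called only in the latter comparison. The ABA importer gene ABCG40 (1.80) and the receptor gene PYR1 (0.998) were higher in Ws than in Ler. Between Col and Ler the receptor genes PYL4 (0.81) and PYL1 (0.59) and the kinase gene SnRK2.2 (0.78) were higher in Col. The phosphatase genes HAB1 (-0.89) and AHG3 (-0.73) and DTX50 (-0.73) were lower in Col. For Ws against Col, AHG3 (0.80) and PYL8 (0.72) were higher, and PYL4 (-1.01) and the synthesis gene ABA2 (-0.97) were lower.

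F1 hybrids were compared with the mid-parent value (MPV), the additive expectation from both parents. All 9 members had a positive log2 fold change in the Ws/Ler hybrids and 8 of 9 in the Col/Ler hybrids, with medians of 1.25 and 0.96 beside 0.00798 and -0.00216 over all genes. Several members deviated together within groups, and all were chosen with earlier results of these data known. The shared sign is thus not separate support from each gene. In the Ws/Ler hybrids it also did not hold for NCED3 and RD26 without LerxWs F1 replicate 3. Few passed the test: 0 of 9 in the Ws/Ler hybrids, where 0.281% of genes were called, and 1 of 9, CYP707A3, in the Col/Ler hybrids (0.407%). At an unadjusted p at or under 0.05 there were 4 in the Ws/Ler hybrids (RAB18, RD29A, RD29B and HAI1), where 8.87% of all genes passed. DESeq2 called 1 member in these hybrids, beside 183 of 18146 genes. In the Col/Ler hybrids 5 passed unadjusted (RAB18, RD29B, RD20 and HAI1 higher, CYP707A3 lower), where 7.14% did. None of the other ABA genes was called by edgeR in either cross, among 50 and 49 tested.

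The Ws/Ler values rest largely on 1 library. HAI1, the phosphatase gene, ranged over the 6 Ws/Ler hybrid libraries from 103 to 2892 normalized counts with a median of 183, beside 124 to 278 in the 3 MPV values. The highest library was LerxWs F1 replicate 3, which was also the highest of the 6 for NCED3 (1118), CYP707A1 (126), RAB18 (3354), RD29A (7962), RD29B (1799), RD20 (6897) and RD26 (2779.5), that is for all members but CYP707A3. It is 1 of the libraries that stood apart. Without it the log2 fold change fell from 3.11 to 0.89 for RD29B, from 1.499 to 0.29 for RAB18 and from 2.00 to 0.54 for HAI1, and NCED3 and RD26 turned negative (-0.23 and -0.41). RD29A, at 1.92 with all libraries, was 1.11 without it (SE 0.41, adjusted p = 0.37) and was then the 1 member left at an unadjusted p at or under 0.05. With LerxWs F1 replicate 2, WL_HM3 replicate 3 and WL_HM6 replicate 2 left out as well it was 0.92.

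In the Col/Ler hybrids the same genes spread widely, and RAB18, RD29B and HAI1 were not called. RAB18 ranged from 369 to 7948 normalized counts with a median of 1368, beside 308 to 516 for the MPV (log2 fold change 2.51, SE 0.98, adjusted p = 0.489). RD29B ranged from 44.4 to 645 with a median of 194, beside 22.1 to 73.2 (log2 fold change 2.65, SE 0.94, adjusted p = 0.4). HAI1 had a median of 735 in a range of 238 to 1636 (log2 fold change 2.04, SE 0.73, adjusted p = 0.4). For all 3 genes the hybrid range reached from within the MPV range to far above it.  Leaving out LerxCol F1 replicate 2, the library with the most RAB18, took the RAB18 log2 fold change to 1.43 and that of RD29B to 2.10, while HAI1 stood at 2.197.

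CYP707A3 lay on opposite sides of the MPV in the hybrids of the 2 crosses. In the Ws/Ler hybrids it ranged from 109 to 229 normalized counts with a median of 143, the level of the Ler libraries. All 6 lay above the MPV values of 83.8 to 108, but by the test the difference was not called (log2 fold change 0.65, SE 0.39, adjusted p = 0.711). In the Col/Ler hybrids it ranged from 34.2 to 50.7 with a median of 43.7, within the range of Col, and all 6 lay below the MPV values of 79.8 to 99.5 (log2 fold change -1.05, SE 0.20, adjusted p = 0.0131). That call was lost without MPV replicate 1 or 2 (adjusted p up to 0.0911). The difference between the hybrid effects was tested as a contrast and was called (log2 fold change 1.69, SE 0.29, adjusted p = 0.0408), in the direction of a higher effect in Ws/Ler. It was the only one of the 9 members so called, among 0.0390% of all genes, and the only one at an unadjusted p at or under 0.05, where 5.79% of genes passed. The call was lost in 11 of 18 fits that left out 1 library, with a log2 difference of 1.58 to 1.79 and adjusted p up to 0.195 in those fits. The left-out libraries were LerxWs F1 replicate 1, each ColxLer F1 replicate, LerxCol F1 replicate 2 and each MPV replicate of both crosses. It was also lost with total-count scaling (log2 difference 1.70, adjusted p = 0.0775) and with the replicate number as a block (1.68, adjusted p = 0.0536). The hybrids of the 2 crosses belong to different collection sets, so that cross and set cannot be told apart in this difference. Both MPVs contain the same 3 Ler libraries, whose collection set is not settled, and its part in the difference was not tested.

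The 2 directions of a cross were compared to see whether they could be taken as 1 group. Of the members 0 were called by edgeR between WsxLer and LerxWs and 0 between ColxLer and LerxCol, beside 0% and 0% of all genes. DESeq2 called 0 members in both, and at an unadjusted p at or under 0.05 there were 0 members as well, where 1.67% and 0.893% of genes passed. With the spread described above this test could miss large differences: the standard error of the log2 fold change was 1.43 for RD29B in the Ws/Ler cross.

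The F7 lines were compared with the MPV line by line. Over the 9 Ws/Ler lines 18 of 81 member tests were called (22.2%), 6 higher and 12 lower, while the share of all genes called per line ran from 11.9% in WL_HM3 to 41.2% in wl_sml2. WL_HM7 stood at 15.8%, WL_HM5 at 17.6%, WL_HM1 at 22.4%, WL_HM2 at 23.4%, WL_HM6 at 25.7%, wl_sml1 at 34.3% and WL_HM4 at 34.4%. Over the 6 Col/Ler lines 15 of 54 were called (27.8%), 8 higher and 7 lower, where the share of all genes was 14.6% in CL_HM1 and 18.0% in CL_HM2, 23.9% in CL_HM4 and 25.9% in CL_HM3, and 50.5% in cl_sml2 and 50.9% in cl_sml1. The Ws/Ler count depends on the fit: with only the groups compared in each fit it was 32, beside 2.89% to 51.5% of all genes per line, and it was 11 where every library had to reach 50 counts, which leaves 5 of the 9 members. What follows is about single members. Of these calls, 8 of 18 and 8 of 15 held under every alternative in which the gene was tested. All lines of a cross share the same 3 MPV libraries.

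**Figure D2:**
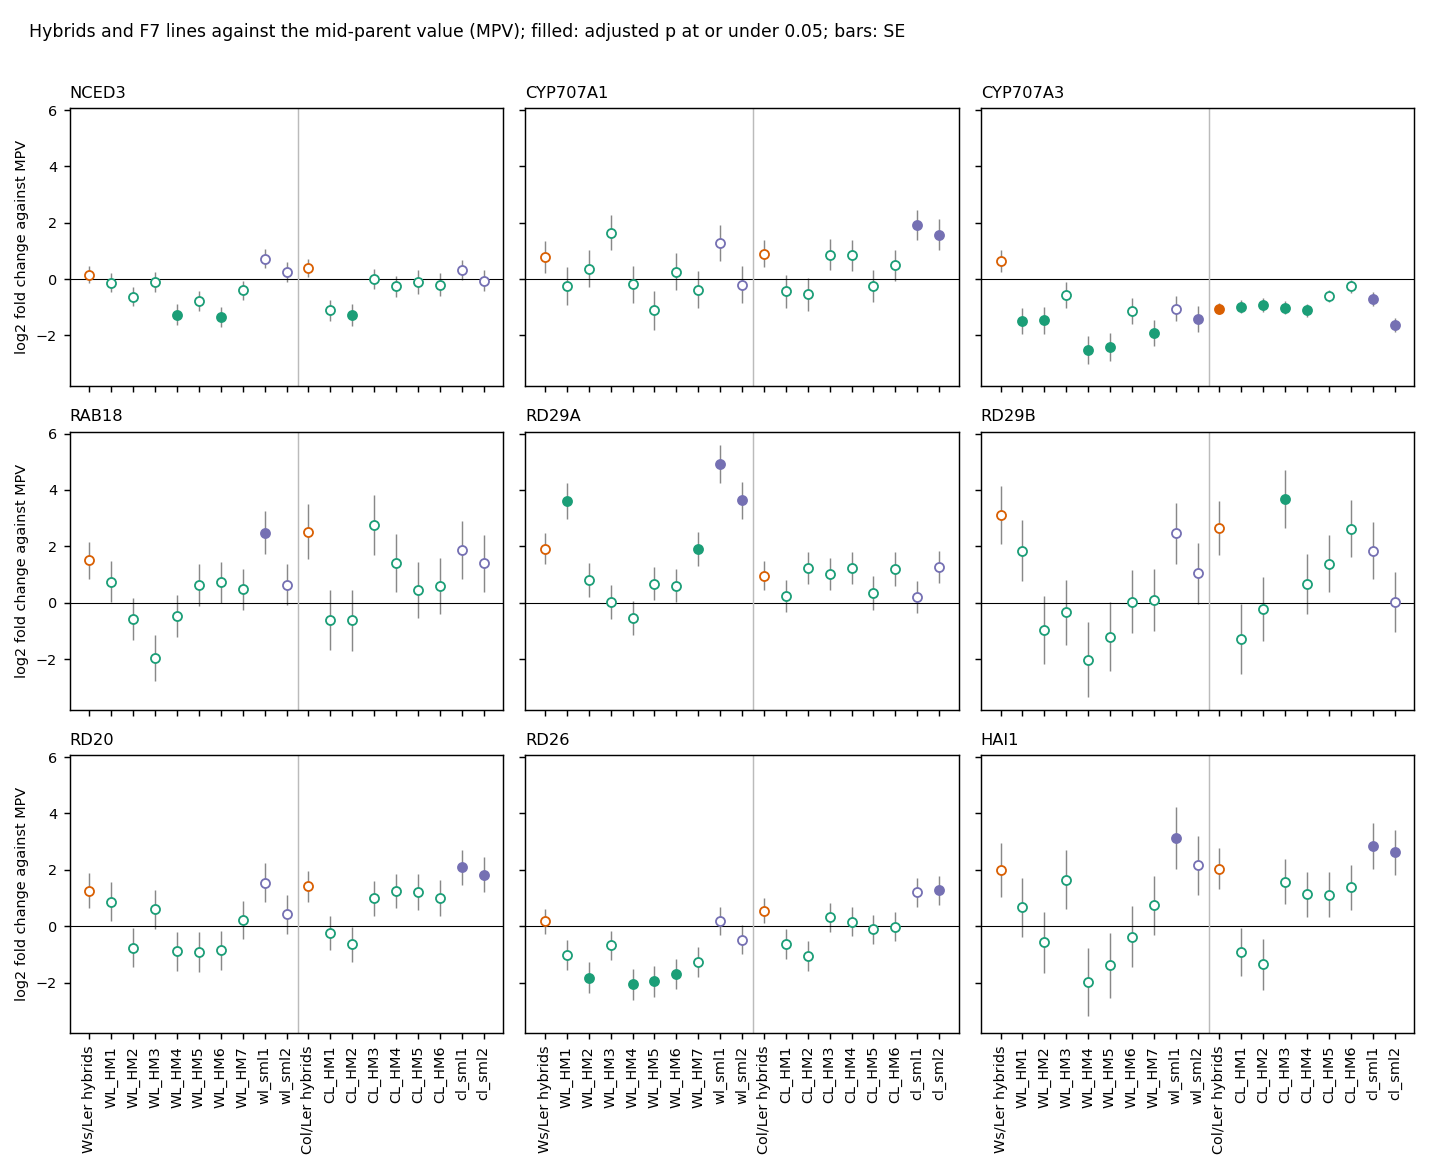
Log2 fold change of each member against the MPV in the hybrids (orange), Hybrid Mimics (green) and small lines (purple), Ws/Ler left of the grey line and Col/Ler right of it. Bars are standard errors of the fit and filled points have an adjusted p at or under 0.05. CYP707A3 lies below 0 in all F7 lines, and RD29A reaches 4.92 in wl_sml1.

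CYP707A3 was below the MPV in every F7 line of both crosses. It was called lower in 6 of 9 Ws/Ler lines, with log2 fold changes of -2.51 in WL_HM4 and -2.43 in WL_HM5 as the largest falls, and in all 6 of 6 Col/Ler lines, from -1.62 in cl_sml2 to -0.71 in cl_sml1. WL_HM4 held 17.3, 7.76 and 26.0 normalized counts and WL_HM5 21.7, 13.2 and 19.6. Both are below every library of either parent, Ws at 51.4 to 61.0 and Ler at 107 to 156. WL_HM7 held 33.6, 15.5 and 27.6, WL_HM1 34.6, 42.8 and 27.9 and WL_HM2 39.4, 38.9 and 26.95, again under both parents. The Hybrid Mimics of this cross thus lay far from the F1 hybrids in this gene: over their 21 libraries the range was 7.76 to 95.5, below all 6 hybrid libraries. No test was made of that contrast. The calls in WL_HM4, WL_HM5 and WL_HM7 held under every alternative, while those in WL_HM1, WL_HM2 and wl_sml2 were lost when 1 library was left out: MPV replicate 1 or 2 or WL_HM1 replicate 1 or 3 for the first (adjusted p up to 0.0940), MPV replicate 1 or 2 or any WL_HM2 replicate for the second (0.0858), and wl_sml2 replicate 1 or 3 for the last (0.0877).

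In the Col/Ler lines CYP707A3 sat at the level of Col and of the Col/Ler hybrids. CL_HM1 held 42.5, 50.1 and 44.6 normalized counts, CL_HM2 67.6, 35.3 and 39.3, CL_HM3 37.6, 37.9 and 56.9 and CL_HM4 47.8, 38.8 and 37.7. Col itself had 26.97 to 52.9, so that these ranges overlap. The MPV values lie between Col and Ler, and every library of the Col/Ler set, CL_HM5 and CL_HM6 included, was below the 3 Ler libraries. The calls in CL_HM2 were lost without CL_HM2 replicate 2 or 3 (adjusted p up to 0.0694), and those in cl_sml1 without MPV replicate 1 or cl_sml1 replicate 1 or 2, under total-count scaling and with the MPV on the log scale (up to 0.118).

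RD29A was raised in particular Ws/Ler lines. It was called higher in wl_sml1, wl_sml2, WL_HM1 and WL_HM7 and lower in none of the 15 lines. wl_sml1 held 19607, 27292 and 14765 normalized counts (log2 fold change 4.92, SE 0.69, adjusted p = 2.28e-06), above all other libraries of the series. wl_sml2 held 8087, 10056 and 7190.2 (log2 fold change 3.63, SE 0.65, adjusted p = 5.78e-05). WL_HM1 held 13384, 7187 and 4521 (log2 fold change 3.60, SE 0.65, adjusted p = 0.0002), and all of these lay above Ws at 279.8 to 971 and Ler at 382 to 1647. The other Hybrid Mimics of the cross, WL_HM2 to WL_HM6, ran from 383 to 1461 and overlapped the parents. WL_HM7, at 3312, 2898 and 1502, was called with a log2 fold change of 1.90, but lost without any MPV replicate or without WL_HM7 replicate 1 or 2 (adjusted p up to 0.117). The other 3 held under every alternative. The 6 Col/Ler lines had log2 fold changes from 0.22 to 1.27, none of them called.

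Its neighbour RD29B was called in none of these lines. In wl_sml2, where RD29A was raised by 3.63 on the log2 scale, RD29B had 1.04 (SE 1.07, adjusted p = 0.45) and RAB18 0.64. In wl_sml1 RD29B read 207, 266 and 228 normalized counts, with a log2 fold change of 2.45 that was not called (adjusted p = 0.0795). RAB18 was called there (log2 fold change 2.49, SE 0.75, adjusted p = 0.0113, lost without MPV replicate 1), at 1506, 1426 and 2321. RD29B was called higher in 1 line only, CL_HM3, at 179.8, 719 and 610.4 against 12.96 to 19.6 in Col and 24.6 to 133 in Ler (log2 fold change 3.68, SE 1.04, adjusted p = 0.0123), under every alternative. RD29A had a log2 fold change of 1.02 in that line and was not called (adjusted p = 0.195). RAB18 was at 629, 5069.7 and 2045 in CL_HM3 (log2 fold change 2.76, SE 1.06, adjusted p = 0.0569). Differences between these genes within a line were not tested.

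RAB18 was lowest in WL_HM3, at 86.8, 87.6 and 67.3 normalized counts in the 3 plants, below all 9 parent libraries. Against the MPV its log2 fold change was -1.97 (SE 0.82, adjusted p = 0.118), and it was not called. The low level included WL_HM3 replicate 3, in which HAI1 (1379.6 against 44.0 and 189), RD20 (3426 against 472 and 563) and CYP707A1 (210.0 against 27.5 and 33.8) were all far above the other 2 plants. No member was called in WL_HM3 by edgeR or by DESeq2, beside 2152 and 2761 of 18146 genes. An unadjusted p at or under 0.05 was found for 2, RAB18 and CYP707A1. Without replicate 3 the CYP707A1 log2 fold change went from 1.65 to 0.055, and that of RAB18 from -1.97 to -1.86.

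RD26 and NCED3 were called lower in Hybrid Mimics and in no line higher, apart from RD26 in cl_sml2. RD26, the NAC factor, was lower in WL_HM2, WL_HM4, WL_HM5 and WL_HM6, with log2 fold changes of -1.70 to -2.06. WL_HM4 held 227, 233 and 206 normalized counts against 839 to 1375 in Ws and 409 to 1163 in Ler, without overlap. The call in WL_HM4 held under every alternative, that in WL_HM5 was lost without WL_HM5 replicate 3 (adjusted p = 0.0694), that in WL_HM2 without WL_HM2 replicate 1 or 3 (up to 0.0614), and that in WL_HM6 without MPV replicate 2 or 3 or WL_HM6 replicate 2 or 3 (up to 0.0921). NCED3, the synthesis gene, was lower in WL_HM6 (log2 fold change -1.34, SE 0.36, adjusted p = 0.00858), at 214, 185 and 165, in WL_HM4 (-1.26) and in CL_HM2 (-1.26). The WL_HM6 call held under every alternative, that of WL_HM4 was lost without WL_HM4 replicate 2 (adjusted p = 0.0527) and that of CL_HM2 without MPV replicate 3 or CL_HM2 replicate 2 or 3 (up to 0.134). WL_HM4 had a negative log2 fold change in all 9 members, with a median of -1.26 beside -0.01 over all genes. Since several members deviated together within groups, this shared sign is not separate support from each gene.

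HAI1, RD20 and CYP707A1 were called higher in small lines only, in the sense that no Hybrid Mimic reached a call. HAI1 rose in wl_sml1 (log2 fold change 3.13, SE 1.09, adjusted p = 0.0264), cl_sml1 (log2 fold change 2.85, SE 0.81, adjusted p = 0.00531) and cl_sml2 (2.62). It read 1547, 521 and 2312 normalized counts in cl_sml1, beside 132 to 204 in Col and 88.0 to 462 in Ler. RD20 and CYP707A1 rose in cl_sml1 (2.09 and 1.92), where all 3 calls held under every alternative, and in cl_sml2 (1.83 and 1.58). In cl_sml2 RD26 was called as well (1.28), but all 4 calls rest on cl_sml2 replicate 2, a library that stood apart and held 2494 normalized counts of RD26 against 898 and 730.4. Without it the log2 fold changes were 1.84 for HAI1, 1.21 for RD20, 0.83 for CYP707A1 and 0.53 for RD26, and none was called (adjusted p from 0.0766 to 0.427). Leaving out MPV replicate 2 also ended the calls of CYP707A1, RD20 and RD26, MPV replicate 1 that of RD26 and MPV replicate 3 that of CYP707A1. The HAI1 call in wl_sml1 was lost without MPV replicate 1 or 2 or wl_sml1 replicate 2 or 3 (up to 0.0924).

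CL_HM5 and CL_HM6, the lines left out by the study, had 0 of 9 members called by edgeR in either, beside 18.3% and 31.3% of all genes. DESeq2 called 1 member in each, beside 3826 and 6005 of 17974 genes, and 1 in each had an unadjusted p at or under 0.05. They were the Col/Ler groups with the most CYP707A3, 59.1, 53.7 and 65.7 and 80.0, 76.5 and 65.8 normalized counts, with log2 fold changes of -0.60 and -0.26. The largest positive value was that of RD29B in CL_HM6 (log2 fold change 2.62, SE 1.02, adjusted p = 0.0508). CL_HM5 replicate 3, which stood apart, was high in RD20 (4054 against 1028 and 1468) and low in RD29A (727 against 1851 and 3822).

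Among the other ABA genes, the receptor gene PYR1 was called lower in 6 of 9 Ws/Ler lines and 4 of 6 Col/Ler lines, and NPF4.6, an ABA importer gene, in 6 and 5. These genes were named for being called in most lines. Per line 11.9% to 41.2% of all genes were called in Ws/Ler and 14.6% to 50.9% in Col/Ler. In the Ws/Ler lines the phosphatase gene AHG3 was lower in 7, all of them Hybrid Mimics. It was higher in 2, the small lines wl_sml1 and wl_sml2. PYL5 and P5CS1, a gene of proline synthesis, were each lower in 6. PYL4 was called higher in 5 of these lines and lower in 2. In the Col/Ler lines the bZIP gene ABF3 was lower in 4, and the kinase gene SnRK2.2 was higher in 5 and lower in 1.

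Small lines were set against the Hybrid Mimics of the same cross, since both are F7 lines and differ in plant size. The study reports that they diverged in flowering time as well. Small plants flowered near the early parent or before it, and large plants near the later parent. Plant size and flowering time thus cannot be told apart in this contrast. Of the members 7 of 9 were higher in the Ws/Ler small lines (NCED3, RAB18, RD29A, RD29B, RD20, RD26 and HAI1) and 5 of 9 in the Col/Ler small lines (NCED3, CYP707A1, RD20, RD26 and HAI1), and none was lower. The background was high: 71.0% of all genes were called in Ws/Ler and 71.0% in Col/Ler, so that neither count stands out. All member calls went one way, whereas 6746 genes were higher and 6143 lower in Ws/Ler and 6457 and 6271 in Col/Ler (9360 and 4157, and 10117 and 3693, when scaled by total counts). Several members deviated together within groups, as described below, and all were chosen with earlier results of these data known. Their shared direction is thus not separate support from each gene. The members' median log2 fold change was 1.36 and 0.90 beside 0.03 and 0.01 over all genes. Every one of these 12 calls held under all alternatives in which the gene was tested. The test concerns these lines, 2 small lines and 7 or 4 Hybrid Mimics, and their plants are siblings.

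**Figure D3:**
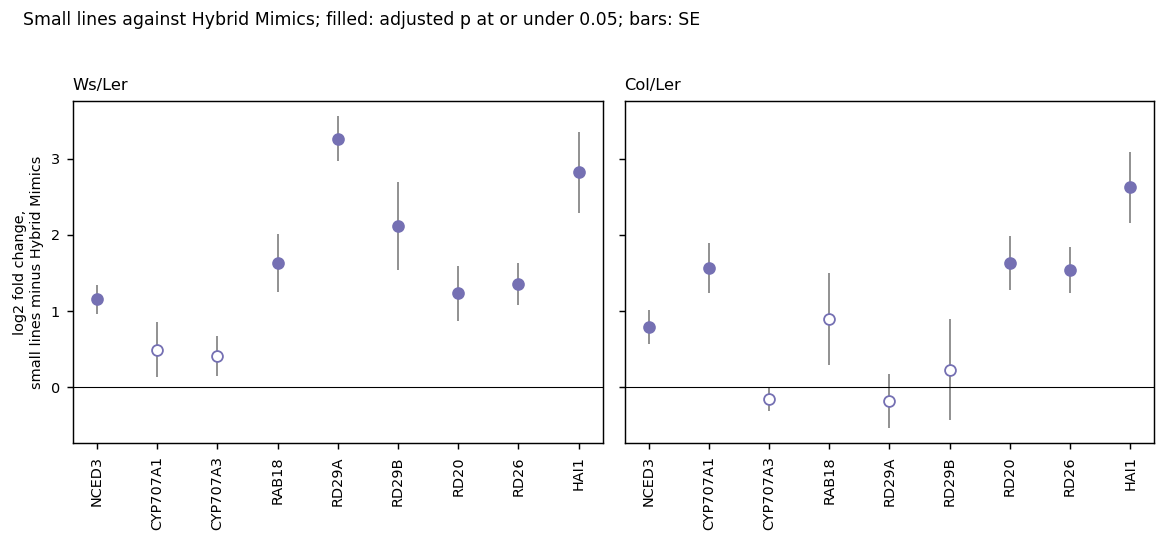
Log2 fold change of the mean of the 2 small lines over the mean of the Hybrid Mimics (7 in Ws/Ler, 4 in Col/Ler) for each member, with standard errors. Filled points have an adjusted p at or under 0.05. HAI1 is at 2.82 and 2.63, while RD29A is at 3.27 in Ws/Ler and -0.18 in Col/Ler.

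HAI1, RD20, RD26 and NCED3 were called in both crosses. HAI1 had a log2 fold change of 2.82 (SE 0.53, adjusted p = 2.95e-05) in Ws/Ler, where the 6 small-line libraries held 591 to 1792 normalized counts and the 21 Hybrid Mimic libraries 27.9 to 1379.6. In Col/Ler it had 2.63 (SE 0.47, adjusted p = 3.08e-05), at 521 to 2312 against 15.0 to 976 in 12 libraries. The ranges overlap in both crosses. RD26 rose by a log2 fold change of 1.36 and 1.54, RD20 by 1.23 and 1.63, and NCED3 by 1.15 and 0.80.

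The 3 response genes RD29A, RAB18 and RD29B were called in Ws/Ler only. RD29A had 3.27 in Ws/Ler (SE 0.29, adjusted p = 1.01e-10), with 7190.2 to 27292 normalized counts in small lines and 383 to 13384 in Hybrid Mimics, where WL_HM1 alone reached the small lines. In Col/Ler it had -0.18 (SE 0.35, adjusted p = 0.654), at 783 to 7026 against 1068 to 5914. RD29B had 2.12 and 0.23, and RAB18 1.63 and 0.90. CYP707A1 was called in Col/Ler only, with 0.49 in Ws/Ler (adjusted p = 0.229) and 1.57 in Col/Ler (0.000185). The difference between the crosses was not tested. CYP707A3 was not called in either (0.41 and -0.16). The 3 guard cell genes FAMA, KAT1 and MYB60 summed to 1324 to 1724 normalized counts in the Ws/Ler small lines and 763 to 1517 in the Hybrid Mimics, and to 791 to 1037 and 869 to 1331 in Col/Ler, with 0 of 3 genes apart in either cross. The sum of the 4 leaf genes was lower in the small lines, without overlap. It came to 286483 to 358326 normalized counts in the Ws/Ler small lines against 531571 to 1156239 in the Hybrid Mimics, and to 268921 to 361451 against 550352 to 1015661 in Col/Ler. All small-line libraries lay below all Hybrid Mimic libraries for RBCS1A, CAB2 and RCA in both crosses and for CA1 in Col/Ler. The part of these shifts in leaf and guard cell genes in the members' rise was not tested.

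In the wider list 35 of 50 genes tested were higher and 9 lower in the Ws/Ler small lines, and 33 and 10 of 49 in the Col/Ler small lines. Of all genes 71.0% were called in each cross, 6746 higher and 6143 lower in Ws/Ler and 6457 and 6271 in Col/Ler. All 6 clade A phosphatase genes tested and all 3 SnRK2 kinase genes were higher in both crosses, under each scaling. Without the libraries that stood apart the phosphatase count in Col/Ler was 4 of 6, and in Ws/Ler it was 6 of 6. Of the 15 drought and ABA response genes 14 were higher and 0 lower in Ws/Ler, and 11 were higher and 4 lower in Col/Ler. TSPO (4.88), XERO2 (2.98) and NAC019 (2.96), a NAC gene related to RD26, rose most on the log2 scale in Ws/Ler. NAC055 (4.34), ABCG40 (3.63) and DREB2A (3.31), which encodes a factor that binds DRE elements, rose most in Col/Ler. Receptor genes did not move together: 3 of 9 were higher and 5 lower in Ws/Ler, 4 of 8 higher and 3 lower in Col/Ler. The largest falls in Ws/Ler were those of PYL2 (-2.33), PYL4 (-2.30) and the synthesis gene ABA1 (-1.65), and in Col/Ler those of BGLU18 (-1.16), whose enzyme frees ABA from its glucose ester, GolS2 (-1.12) and RD22 (-1.09).

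How the members varied together was described from the deviations of the 72 libraries from their group means, over which group differences are removed. RD20, RD26 and HAI1 deviated together: Pearson's r = 0.89 for RD20 and HAI1, 0.88 for RD20 and RD26 and 0.87 for RD26 and HAI1 (Spearman's rho 0.88, 0.87 and 0.84). NCED3 went with RD26 (r = 0.72) and CYP707A1 with RD20 (r = 0.75). RAB18 and RD29B formed another pair (r = 0.86, rho 0.80), while RAB18 with RD20 gave 0.43. Without the 2 libraries farthest from the median the values were 0.87 for RD20 and HAI1, 0.83 for RAB18 and RD29B and 0.33 for RAB18 and RD20. RD29A correlated with RD29B at 0.59 and with RAB18 at 0.37. CYP707A3 deviated with none of the others, its values running from 0.02 to 0.10. The points share library and depth, and no test was made.

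**Figure D4:**
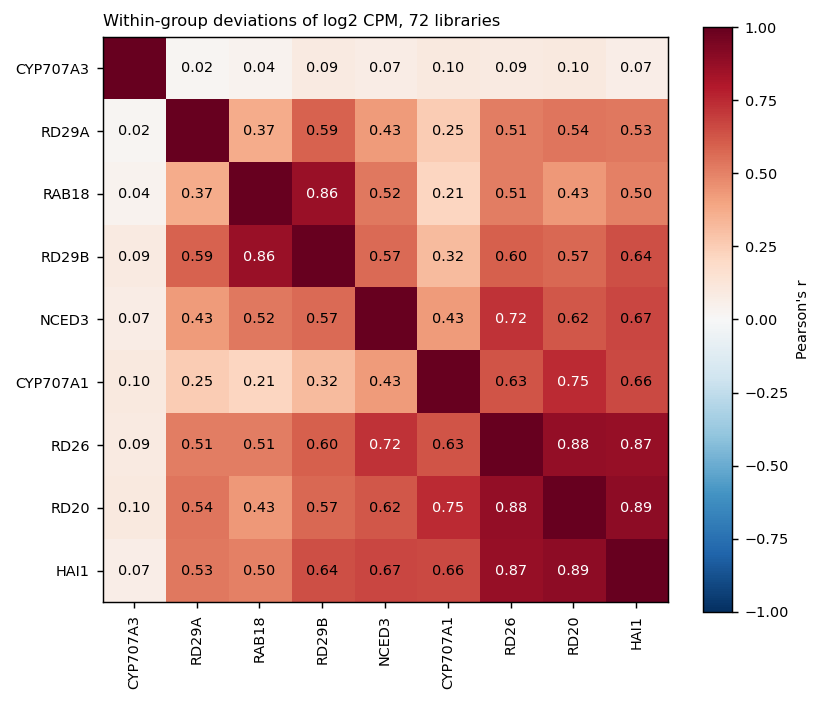
Pearson's r between members over the deviations of log2 CPM of 72 libraries from their group means. RD26, RD20 and HAI1 form a block at 0.87 to 0.89, RAB18 and RD29B pair at 0.86, and the CYP707A3 row stays between 0.02 and 0.10.

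Single libraries differ in which of these genes are high. In LerxCol F1 replicate 2 RAB18 stood at 7948 normalized counts against 1406 and 1399.9 in the other 2 libraries, the highest value of the series, and RD29B at 645 against 184 and 204. In the same library RD20 (1009 against 4921 and 3399) and HAI1 (380.2 against 1636 and 1032) were the lowest of the 3. CL_HM3 replicate 2 repeated this, with RAB18 at 5069.7 against 629 and 2045 and RD20 at 905 against 2102 and 2558. Counted over all genes, 3 and 2 lay at least 4-fold above both group mates in these 2 libraries, and 59 and 35 at least 4-fold below both. The 59 is the highest such count of the 72 libraries, and the part of such library-wide differences in the pattern was not tested. WL_HM3 replicate 3 had HAI1 and RD20 high and RAB18 the lowest of its group, while RD29B was the highest of its group at 42.2 against 35.2 and 22.5, and LerxWs F1 replicate 3 had both sets high.

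**Figure D5:**
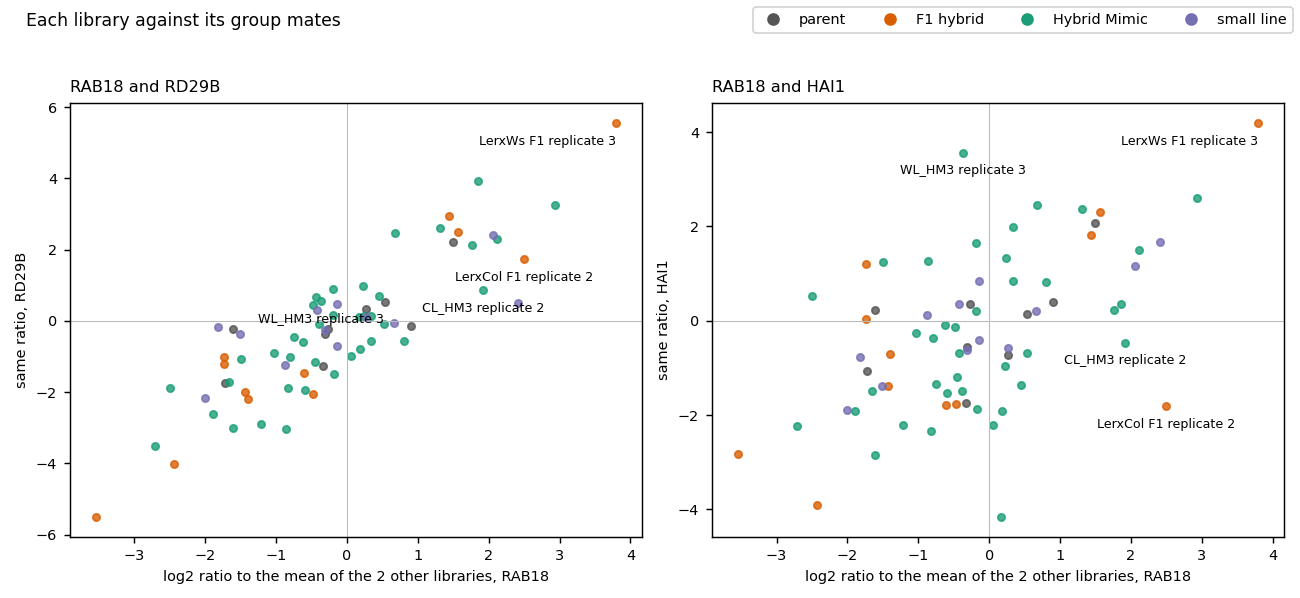
Log2 ratio of each of the 72 libraries to the mean of the other 2 libraries of its group, RAB18 on the horizontal axis and RD29B (left) or HAI1 (right) on the vertical axis, coloured by kind of plant. RD29B rises with RAB18 in the left panel, whereas in the right panel LerxCol F1 replicate 2 (RAB18 5.67 and HAI1 0.285 times its mates) and WL_HM3 replicate 3 (RAB18 0.772 and HAI1 11.9 times) lie in opposite corners.

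Across the whole series the genes most like the mean z-score of the 9 members, over 72 libraries and group differences included, were AT5G50360 (Pearson's r = 0.92, rho 0.92), the late embryogenesis abundant gene LEA4-5 (0.91), TSPO (0.90), the phosphatase gene HAI2 (0.89), the homeobox gene HB-7 (0.88) and GLYI7 (0.88). TSPO, HAI2 and HB-7 belong to the list of ABA genes used here. AT5G50360 ran from 0 to 896 normalized counts with a median of 17.8, and LEA4-5 from 0 to 975 with a median of 22.1.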

How the data were processed

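RNA-seq of 72 rosette-leaf libraries was taken up as raw counts. The authors aligned 150 bp paired-end reads with STAR 2.5.3a to TAIR10 with Araport11 and deposited counts per gene from STAR's gene counting, whose strand setting is not given in the sources used here. Libraries held 17741358 to 28527725 counts. The 9 members and all gene lists were chosen with earlier results of these data known. The mid-parent value (MPV) was made as 3 libraries per cross, each adding the same-numbered libraries of both parents, scaled to their mean size. Genes that reached 50 counts in any 1 library were tested with edgeR 4.0.16 (TMM, quasi-likelihood) in R 4.3.3, fitted over the 9 parents, the 36 Ws/Ler, the 27 Col/Ler (33 for CL_HM5 and CL_HM6), the 18 hybrid and MPV or the 12 hybrid libraries. The fit was tested on simulated counts in which every library, the MPV included, was drawn independently with a dispersion set by expression level. Sums of parent libraries and the wide spread of the members were not part of that simulation. SE is the log2 fold change divided by the square root of F. DESeq2 1.42.0, other scalings, filters and MPVs, a replicate block and leaving out each library were alternatives. Leaving out the libraries that stood apart was added after the data were seen. Of the pathway list, the called genes with up to 3 largest rises and falls were named per comparison, or those called in most lines, ties kept, and 6 genes most like the members by correlation. List entries whose identifier belonged to another gene, 2 in number, were dropped. The libraries of a group are separate plants or pools, except those of the MPV, which are sums of parent libraries. The p-values measure spread between libraries within groups, estimated over all groups of a fit, and not spread between lines. Sequences and coordinates are from RefSeq's TAIR10.1.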

Additional observations from a re-analysis of the deposited data

Results flagged for a closer look

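For CYP707A3, a hydroxylase gene of ABA breakdown, the distance of the hybrids from the MPV was called different between the crosses. The test was of the difference itself, and its call was not stable. The Ws/Ler and Col/Ler hybrids belong to different collection sets, so that cross and set cannot be told apart. The log2 fold change of the hybrids against the MPV was 1.69 higher in Ws/Ler than in Col/Ler (SE 0.29, adjusted p = 0.0408, edgeR quasi-likelihood test). All 6 Ws/Ler hybrid libraries lay above their MPV values and all 6 Col/Ler hybrid libraries below theirs. The call was lost in 11 of 18 fits without 1 library (adjusted p up to 0.195), with total-count scaling (0.0775) and with the replicate number as a block (0.0536), and in the fit with at least 50 counts in every library the gene was not tested. Both MPVs contain the same 3 Ler libraries, whose collection set is not settled between the sources, and its part was not tested. Among 18 tests of the 6 hybrid libraries of a cross for a single extreme library, over 9 members, 0 passed Dixon's limit.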

How the results depend on the processing

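No log2 fold change that was called changed sign under any alternative. Counts of members called moved as follows. Requiring at least 50 counts in every library removes low members from the test, and gave 0 for Ws against Ler, 0 for Col against Ler, 0 in the Col/Ler hybrids, 0 for the difference between hybrid effects, 11 over the Ws/Ler lines, 4 over the Col/Ler lines and 3 for the Col/Ler small lines. With an unadjusted p there were 4 for Ws against Ler, 4 for Col against Ler, 4 in the Ws/Ler hybrids and 5 in the Col/Ler hybrids. For Col against Ler total-count scaling gave 2 and no filter gave 3. DESeq2 gave 3 there, beside 3303 of 17043 genes. In the Ws/Ler hybrids DESeq2 gave 1, beside 183 of 18146 genes, and the MPV on the log scale gave 2 in either cross. Total-count scaling gave 0 for the difference between hybrid effects. Fitting only the groups compared gave 32 over the Ws/Ler lines. The cause was not tested in these cases. The other counts of this paragraph stand without the share of all genes called and are no result about the members.

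With 1 library left out, counts ran from 1 to 4 for Ws against Ler, 1 to 3 for Col against Ler, 1 to 3 for Ws against Col, 0 to 1 in the Col/Ler hybrids, 0 to 1 for the difference between hybrid effects, 13 to 19 over the Ws/Ler lines and 12 to 16 over the Col/Ler lines. They ran from 7 to 8 for the Ws/Ler and 5 to 6 for the Col/Ler small lines against the Hybrid Mimics, and stayed at 0 in the Ws/Ler hybrids and between reciprocal crosses.

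On average, replicate numbers did not pair the samples: the mean correlation of deviations was 0.0194 for libraries of the same number and -0.00944 for others. Of 828 same-numbered pairs 275 were above 0.1. Among same-numbered pairs of parents and of reciprocal hybrids, r ran from -0.44 (Ws and Ler, replicate 3) to 0.53 (WsxLer and LerxWs F1, replicate 3). Replicate 3 was the highest library of its group in 9 of 24 groups for CYP707A3 and in up to 14 for RD20. The part of replicate number in the members was not tested beyond the block. With the replicate number as a block the counts were 2, 1 and 3 between Ws and Ler, Col and Ler and Ws and Col, 0 and 1 in the Ws/Ler and Col/Ler hybrids, 0 for the difference between hybrid effects, 7 and 5 for the small lines and 0 between reciprocal crosses.

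Total-count scaling shifted the all-gene median on the log2 scale by over 0.1 only where small lines were compared, by 0.14 in wl_sml1, 0.20 in wl_sml2, 0.25 in cl_sml1, 0.26 in cl_sml2, 0.21 for the Ws/Ler and 0.25 for the Col/Ler small lines against Hybrid Mimics. Depth limits CYP707A1, CYP707A3, RD29B and HAI1 most, whose lowest raw counts were 7, 8, 5 and 13.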
